A study of Homo sapiens with 2 samples.

Results

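Enzymes that write or remove methyl groups on histone lysines, and the CHD chromatin remodellers, were followed in CL1-0 cells, an established human line of lung adenocarcinoma. The arrays covered 2 groups of 1 Affymetrix array each: cells given an antibody to FSTL1, a secreted glycoprotein, for 0 h, and cells given the same antibody for 6 h. Per the labels, cells of both groups had been selected with puromycin after stable transduction, and what was transduced is not stated there. Cells kept for 6 h without antibody were not analysed here, so the antibody and the time in culture cannot be told apart, and in bulk RNA fewer expressing cells and less RNA per cell cannot be told apart either.

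Genes were chosen by their symbols: the KDM, JMJD, KMT2, KMT5, SETD, NSD, EHMT and CHD families, EZH1, EZH2, DOT1L, ASH1L, SUV39H1 and SUV39H2. The rule matched 64 genes on 205 probe sets, of which 1 gene on the Y chromosome was left out and 4 were non-coding neighbours of members. ASH1L was not analysed here. The remaining 59 protein-coding genes, out of 19775 genes named on the array, comprised 21 demethylases and JMJD proteins, 29 methyltransferases and SETD proteins, and 9 CHD remodellers. Below, counts for the demethylases include 4 JmjC proteins with other or debated substrates. Counts for the methyltransferases include 5 such SETD proteins. The set was put together because JMJD1C and CHD2 had already been seen to be high at 6 h on these same arrays. All values are therefore a description of the arrays, and with 1 array per time no difference has a spread between replicates or a test.

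Methylation of histone lysines is set by opposing enzymes. Methyltransferases, most of them with a SET domain, add the groups. Flavin-dependent KDM1 enzymes and the iron- and α-ketoglutarate-dependent enzymes with a JmjC domain remove them. Methylated H3K4 and H3K36 mark active genes, while methylated H3K9 and H3K27 mark silenced chromatin. CHD proteins carry paired chromodomains and a motor domain that uses ATP to move or space nucleosomes.

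Values are probe set intensities on a linear scale, and differences are log2 of the 6 h value minus log2 of the 0 h value. Paired intensities are given in the order 0 h, 6 h, with the log2 difference in brackets. A floor of 45.4, the 50th percentile of both arrays, stood in for background, and dimmer values were raised to it. Probe sets that exceeded it on either array are called measured. Each gene was represented by its brightest measured probe set, the one with the highest mean log2 of both arrays, the 6 h array included. The other sets of a gene are given beside it. All 59 members were measured. Of their 200 probe sets 155 were measured and 45 lay under the floor on both arrays. Over all 12669 measured genes the median difference was 0.017, and different probe sets of the same gene scattered with an SD of 0.16 (0.16 over the 44 members with several measured sets). Probe sets of a gene share the RNA and the array and are not replicates. Of the 59 members, 37 were higher at 6 h and 22 lower, with a median of 0.09, and 14 were at least 1.2-fold higher (9 with the median of each gene's sets). Without JMJD1C and CHD2 the median of the other 57 was 0.088, and 12 were at least 1.2-fold higher. Over all measured genes 54.3% were higher at 6 h, 9.90% at least 1.2-fold (8.23% with the median of sets). Because values of these arrays led to the choice of genes, such shares are given for scale, and nothing is read from the contrast.

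JMJD1C, a large JmjC protein of the KDM3 family, had the highest difference of the members. Its intensity was 574 at 0 h and 1109 at 6 h on probe set 221763_at, a log2 difference of 0.95 (1.93-fold), which ranked 8 among 12669 genes. Set 224933_s_at was at 426 and 717 (0.75) and set 228793_at at 184 and 287 (0.64). Every measured set of JMJD1C was thus higher at 6 h, and the 3 sets span 0.31. The other 3 sets lay under the floor, between 12.8 and 18.3. Its paralogs KDM3A and KDM3B, both demethylases of H3K9, differed far less. KDM3A was at 1665 and 1773 (0.09), and KDM3B was at 2324 and 2546 (0.13) with both of its sets at 0.13.

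CHD2, a remodeller that acts at transcribed genes, had the next highest difference. On set 225077_at it was at 603 at 0 h and 1038 at 6 h, a difference of 0.78 (1.72-fold) that ranked 25. Its other measured sets were at 176 and 293 (0.73), at 215 and 338 (0.65), at 251 and 313 (0.32) and at 327 and 406 (0.31). All 5 were higher at 6 h, but they fall into a pair near 0.3 and 3 sets of 0.65 or more. A sixth set was under the floor at 11.1 and 10.7. CHD1, its closest paralog, was at 1076 and 1177 (0.13), with its other set at 0.06. With the brightest set, JMJD1C and CHD2 were the 2 members at least 1.5-fold higher, and 0 were at least 1.5-fold lower. Among all measured genes 0.75% were at least 1.5-fold higher and 0.182% at least 1.5-fold lower.

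**Figure D1:**
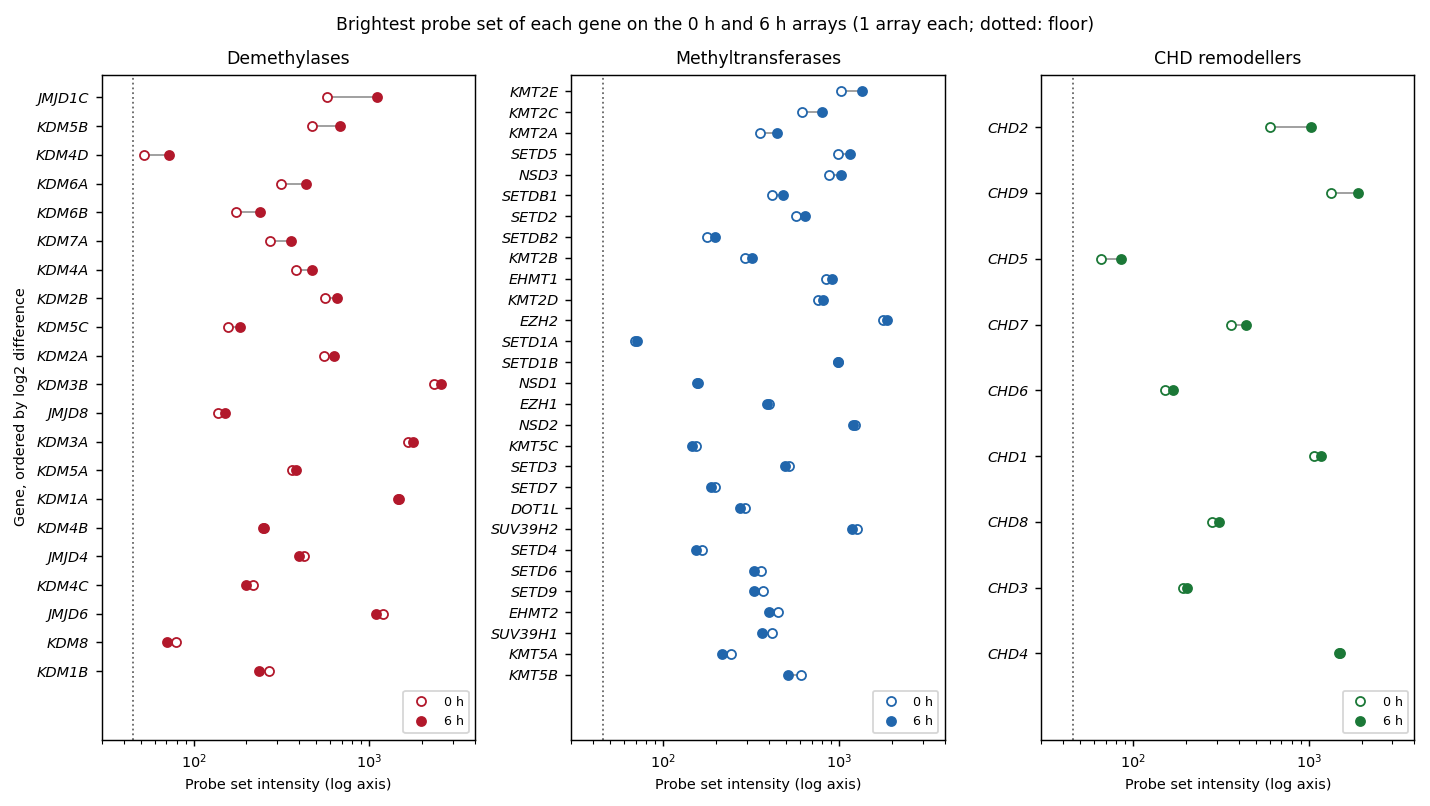
Intensity of the brightest probe set of each member (x axis, log scale) at 0 h (open circles) and 6 h (filled circles), in 3 panels by class, with genes ordered by their difference and 1 array per time. The widest gaps on this axis are those of JMJD1C (574 to 1109) and CHD2 (603 to 1038), and all points lie above the dotted floor of 45.4.

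The sequences next to the RefSeq starts of the members with the highest differences were read for short motifs, as a view of what lies upstream of JMJD1C, CHD2 and KDM5B, a demethylase of H3K4 described further on. Each window holds the 250 bases before a start in GRCh38.p14, written 5′ to 3′ on the gene's strand. Capitals mark the GC box GGGCGG, the E-box CACGTG and the short CRE motif TGACG on either strand, and matches of one motif may overlap. JMJD1C has 3 windows, on the minus strand at chr10:63521891-63522140, chr10:63465978-63466227 and chr10:63269244-63269493. That of CHD2 is on the plus strand at chr15:92900074-92900323, and that of KDM5B on the minus strand at chr1:202808422-202808671.
JMJD1C outermost start: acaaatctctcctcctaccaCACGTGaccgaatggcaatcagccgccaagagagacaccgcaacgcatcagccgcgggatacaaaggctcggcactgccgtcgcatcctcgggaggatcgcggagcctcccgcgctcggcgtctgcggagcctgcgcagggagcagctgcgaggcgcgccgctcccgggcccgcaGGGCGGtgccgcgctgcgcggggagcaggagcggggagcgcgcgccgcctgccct
JMJD1C middle start: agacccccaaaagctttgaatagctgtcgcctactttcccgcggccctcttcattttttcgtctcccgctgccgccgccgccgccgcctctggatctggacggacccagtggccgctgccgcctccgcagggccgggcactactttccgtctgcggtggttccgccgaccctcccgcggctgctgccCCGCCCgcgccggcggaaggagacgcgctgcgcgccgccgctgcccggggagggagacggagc
JMJD1C innermost start: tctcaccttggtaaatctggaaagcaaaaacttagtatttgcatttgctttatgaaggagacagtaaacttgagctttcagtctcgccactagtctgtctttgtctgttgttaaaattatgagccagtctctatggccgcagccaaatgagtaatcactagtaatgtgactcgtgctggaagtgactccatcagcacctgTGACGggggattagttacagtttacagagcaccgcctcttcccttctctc
CHD2: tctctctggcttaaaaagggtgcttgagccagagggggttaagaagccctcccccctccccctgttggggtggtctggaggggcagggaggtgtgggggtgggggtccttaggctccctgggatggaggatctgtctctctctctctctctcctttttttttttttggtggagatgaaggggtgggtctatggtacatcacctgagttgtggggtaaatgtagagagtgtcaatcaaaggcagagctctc
KDM5B: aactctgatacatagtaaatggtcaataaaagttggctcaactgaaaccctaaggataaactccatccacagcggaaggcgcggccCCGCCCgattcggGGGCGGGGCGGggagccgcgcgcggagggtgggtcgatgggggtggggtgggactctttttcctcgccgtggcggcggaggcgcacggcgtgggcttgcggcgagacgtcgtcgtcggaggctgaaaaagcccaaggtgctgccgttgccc

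The outermost and middle JMJD1C windows each had a GC content of 72.0% and 1 GC box, and the outermost also had an E-box. The innermost window had a GC content of 44.0% and 1 short CRE motif. KDM5B had 3 GC boxes, of which a pair overlap, and CHD2 had none of these letters. Windows were found for 52 of the 59 members, 76 in all. More than 1 window was found for 13 members, and some of these overlap, so a site can count more than once. A GC box was in 75.0% of the 76 windows against 42.6% of all 35116 windows of that length, and an E-box in 14.5% against 6.34%. By gene, 42 of the 52 members had a GC box and 10 an E-box, and the share by gene over all genes was not computed. The median GC content was 69.4% in the members' windows and 58.0% in all, so windows of the members hold more G and C to start with. The short CRE motif was in 19.7% of the members' windows against 21.2%. The full CRE TGACGTCA, which contains it, was in 1 window (SUV39H2). The CCAAT box CCAAT was in 34.2% of the members' windows against 32.0%, the ETS motif CCGGAAG in 11.8% against 8.52%, the AP-1 motif TGANTCA in 3.95% against 6.57% and the FOXO motif GTAAACA in 2.63% against 2.98%. The ATF4 motif TGATGNAA was in 0 of 76 windows, against 3.14% of all. Each motif was searched on both strands, and a match is a description of the letters only.

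Among the 21 demethylases and JMJD proteins, 15 were higher at 6 h and 6 lower, with a median difference of 0.13, where 54.3% of all genes were higher. Of the 6 lower, 3 were among the 4 JmjC proteins with other or debated substrates. After quantile or loess scaling, or centring on the median, 14 of 21 were higher, KDM1A changing sign. At least 1.2-fold higher were 7 of them, against 9.90% of all genes, and 0 were that much lower, against 5.29%. Without JMJD1C, 14 of 20 were higher and 6 at least 1.2-fold higher. With the median of a gene's sets 5 of the 21 were at least 1.2-fold higher.

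The KDM5 enzymes remove methyl groups from H3K4. KDM5B was at 473 and 684 (0.53) on its brightest set, and its other measured sets had differences of 0.46, 0.68 and 0.74, all higher at 6 h. KDM5C was at 156 and 184 (0.23), with its other set at 0.21. KDM5A was nearly level, at 361 and 384 (0.09), and its 4 sets lay on both sides of 0, from -0.07 to 0.15. KDM5B therefore stood above both paralogs on every measured set, and with the median of a gene's sets it was also past 1.5-fold (0.61).

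The KDM6 enzymes remove methyl groups from H3K27. KDM6A was at 316 and 436 (0.46), and its other measured set at 172 and 199 (0.21). KDM6B was at 175 and 238 (0.44), with the other 3 sets at 0.26, 0.36 and 0.44. Both genes were higher on all measured sets. KDM7A, a demethylase of H3K9 and H3K27, was also higher on both sets, at 274 and 356 (0.38) and at 56.0 and 83.9 (0.58).

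Of the KDM2 enzymes, which act on H3K36, KDM2A was at 553 and 632 (0.19) with its other sets at 0.26 and 0.43, and KDM2B at 558 and 656 (0.23) on its only set. The KDM4 enzymes act on H3K9, and most of them also on H3K36, and they were split. KDM4A was at 384 and 473 (0.30) with its other set at 0.20. KDM4D was at 52.4 and 72.6 (0.47), values close to the floor, with its other set, above the floor on 1 array alone, at 0.02. With the floor at the 60th percentile its difference was 0.002. KDM4B was at 251 and 247 (-0.02) and had 4 sets from -0.17 to 0.11, and KDM4C was at 216 and 198 (-0.13).

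Of the flavin-dependent enzymes, KDM1A was level and KDM1B lower. KDM1A, the enzyme of the CoREST complex, was at 1462 and 1474 (0.01), and KDM1B was at 270 and 236 (-0.19), the lowest of the demethylases. Proteins of the JMJD group with other or debated substrates were mostly lower. KDM8 was at 79.6 and 70.6 (-0.17), JMJD6 at 1200.5 and 1098 (-0.13) and JMJD4 at 425 and 398 (-0.09). All 3 sets of JMJD4 were lower (-0.30 to -0.09), while JMJD6 had sets from -0.25 to 0.09. JMJD8 was the exception, at 138 and 150.0 (0.13).

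**Figure D2:**
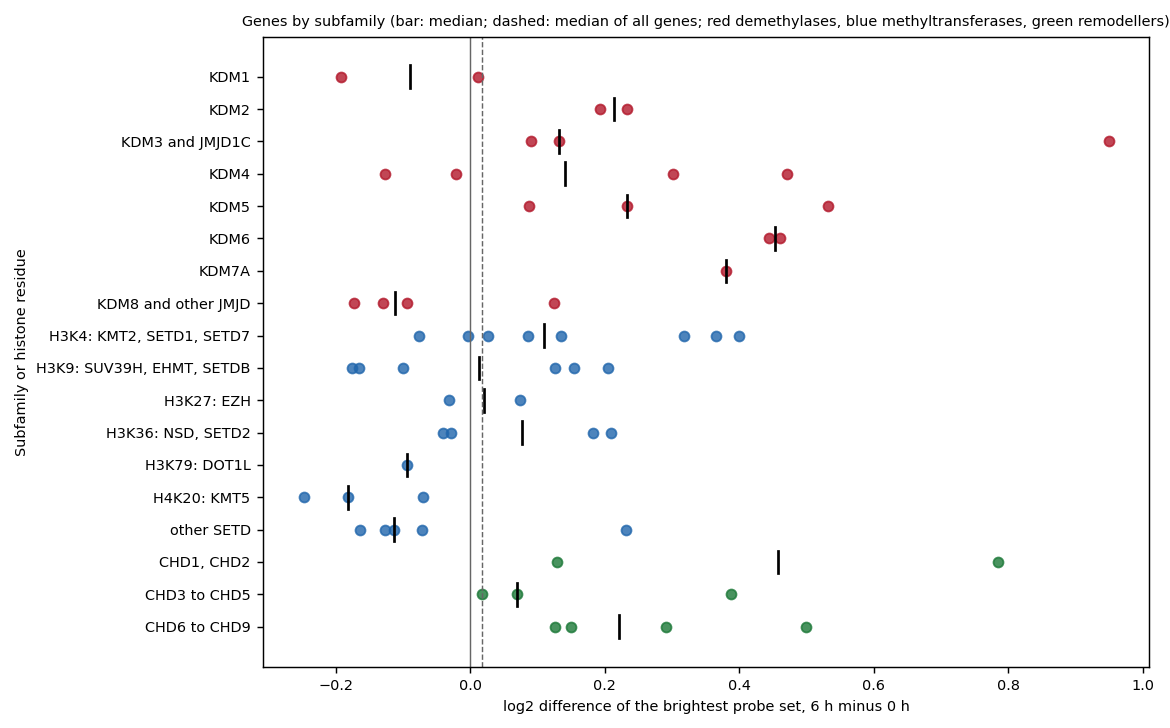
Log2 difference of the brightest probe set (x axis, 6 h minus 0 h) for each member, by subfamily or histone residue (y axis), with 1 point per gene and a bar at the median. The KDM6 genes (0.44 and 0.46) and JMJD1C (0.95) lie to the right, and the KMT5 genes (-0.25 to -0.07) to the left on this probe set.

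The methyltransferases were divided in direction. By the brightest set, 13 of 29 lay above 0 and 16 below, where 54.3% of all genes were higher. Of the 16, 4 were among the 5 SETD proteins with other or debated substrates, whose median was -0.11. The median of all 29 was -0.03, against 0.017 for all genes, and became 0.03 when the median of each gene's sets was used. It was not computed without these 5 proteins. At least 1.2-fold higher were 3 of the 29, against 9.90% of all genes. These 3 were all KMT2 genes, of which 2, KMT2E and KMT2C, were also past 1.2-fold with the median of sets.

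KMT2 proteins form the MLL family, most of them methyltransferases of H3K4. KMT2E, a member with a divergent SET domain, was at 1028 and 1356 (0.40), with the other sets at 0.31 and 0.42. KMT2C was at 620.0 and 798 (0.36) with 4 sets from 0.11 to 0.45, and KMT2A at 355 and 442 (0.32) with 7 sets from -0.07 to 0.40. Of the 14 measured sets of these 3 genes, 1 was lower, a KMT2A set at 54.3 and 51.8 close to the floor. KMT2B, at 291 and 320 (0.13), and KMT2D, at 759 and 806 (0.09), differed less. KMT2D had 5 sets from -0.18 to 0.21. The other H3K4 enzymes were level or slightly lower: SETD1A was at 69.2 and 70.5 (0.03), SETD1B at 992 and 989.9 (-0.003) and SETD7 at 197 and 186 (-0.08).

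Of the H3K36 enzymes, SETD2 and NSD3 were higher and NSD1 and NSD2 close to level. SETD2, which trimethylates H3K36 in transcribed genes, was at 568 and 645 (0.18) with its other set at 0.31. NSD3 was at 883 and 1021 (0.21) and had 5 sets from 0.06 to 0.45. NSD1 was at 158 and 155 (-0.03), and NSD2 at 1236 and 1202 (-0.04) with 6 sets from -0.22 to 0.21. NSD3 was thus higher on every set, while NSD1 was lower on 3 of its 4 sets (-0.18 to 0.02) and the 6 sets of NSD2 were divided.

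Enzymes of the silencing marks lay on both sides of 0, from -0.18 to 0.20 on the brightest set. For H3K27, EZH2, the catalytic subunit of PRC2, was at 1788 and 1882 (0.07), and EZH1 at 399 and 390.3 (-0.03) with 4 sets from -0.25 to 0.12. For H3K9, SUV39H1 was at 414 and 367 (-0.18), EHMT2 at 447 and 399 (-0.17, other sets -0.01 and 0.04) and SUV39H2 at 1271 and 1186 (-0.10) with its other set at -0.17. In the opposite direction, SETDB1 was at 416 and 480 (0.20), SETDB2 at 176 and 196 (0.15) and EHMT1 at 840 and 917 (0.13). The 2 sets of SETDB1 disagreed (-0.17 and 0.20), those of SETDB2 spanned -0.01 to 0.47. DOT1L, the H3K79 enzyme, was at 292 and 274 with both sets at -0.09.

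Among the KMT5 enzymes of H4K20, KMT5B had the lowest difference of all members on its brightest set, but the probe sets of KMT5A and KMT5B disagreed. KMT5B was at 606 and 511 (-0.25), while its other sets were at 0.07 and 0.13. KMT5A was at 244 and 216 (-0.18), while its other 3 sets were at 0.12, 0.14 and 0.23. With the median of a gene's sets both were higher, at 0.07 for KMT5B and 0.13 for KMT5A, so their direction is not settled. KMT5C was at 153 and 146 (-0.07) on its only measured set.

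Among SETD proteins with other or debated substrates, SETD5 was at 987 and 1159 (0.23) with its other sets at -0.04 and 0.14. SETD9 was at 369 and 329 (-0.16), SETD6 at 359 and 329 (-0.13), SETD4 at 166 and 153 (-0.11) and SETD3, which methylates a histidine of actin, at 520.5 and 495 (-0.07). SETD4 was lower on both sets, and the second sets of SETD3 (0.20) and SETD6 (0.04) were higher.

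All 9 CHD remodellers were higher at 6 h on their brightest sets, with a median of 0.15, where 54.3% of all genes were higher. After quantile or loess scaling 8 of 9 were higher, since CHD4 then lay at -0.02 and -0.01. Without CHD2, 8 of 8 were higher, with a median of 0.14. At least 1.2-fold higher were 4 of 9, CHD2, CHD9, CHD5 and CHD7, against 9.90% of all genes, and 3 of 8 without CHD2. CHD5 was counted through a set that was the brighter one at 6 h only. At 0 h its other set was brighter (69.0 against 65.5), and that set was at -0.03. With the median of a gene's sets the count was 2 of 9, CHD2 and CHD9. CHD9 was at 1349 and 1905 (0.50), and 6 of its 7 measured sets were higher, between 0.26 and 0.60. The seventh was at 50.3 and 47.2 (-0.09), near the floor. CHD7, the remodeller altered in CHARGE syndrome, was at 361 and 441 (0.29), with its other sets at 0.21 and 0.26. CHD6 was at 153 and 170 (0.15) with its other measured set at 0.28, and CHD8 at 282 and 308 (0.13).

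The CHD3 to CHD5 proteins are the motor subunits of the NuRD complex. CHD4 was at 1490 and 1508 (0.02), with its other sets at 0.13 and 0.25, and CHD3 was at 193 and 202 (0.07) with its other set at 0.21. CHD5 was at 65.5 and 85.7 (0.39), but its second set, at 69.0 and 67.7 (-0.03), did not share that direction. CHD3 and CHD4 were thus higher on every set by 0.25 or less, and the direction of CHD5 depended on the set.

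**Figure D3:**
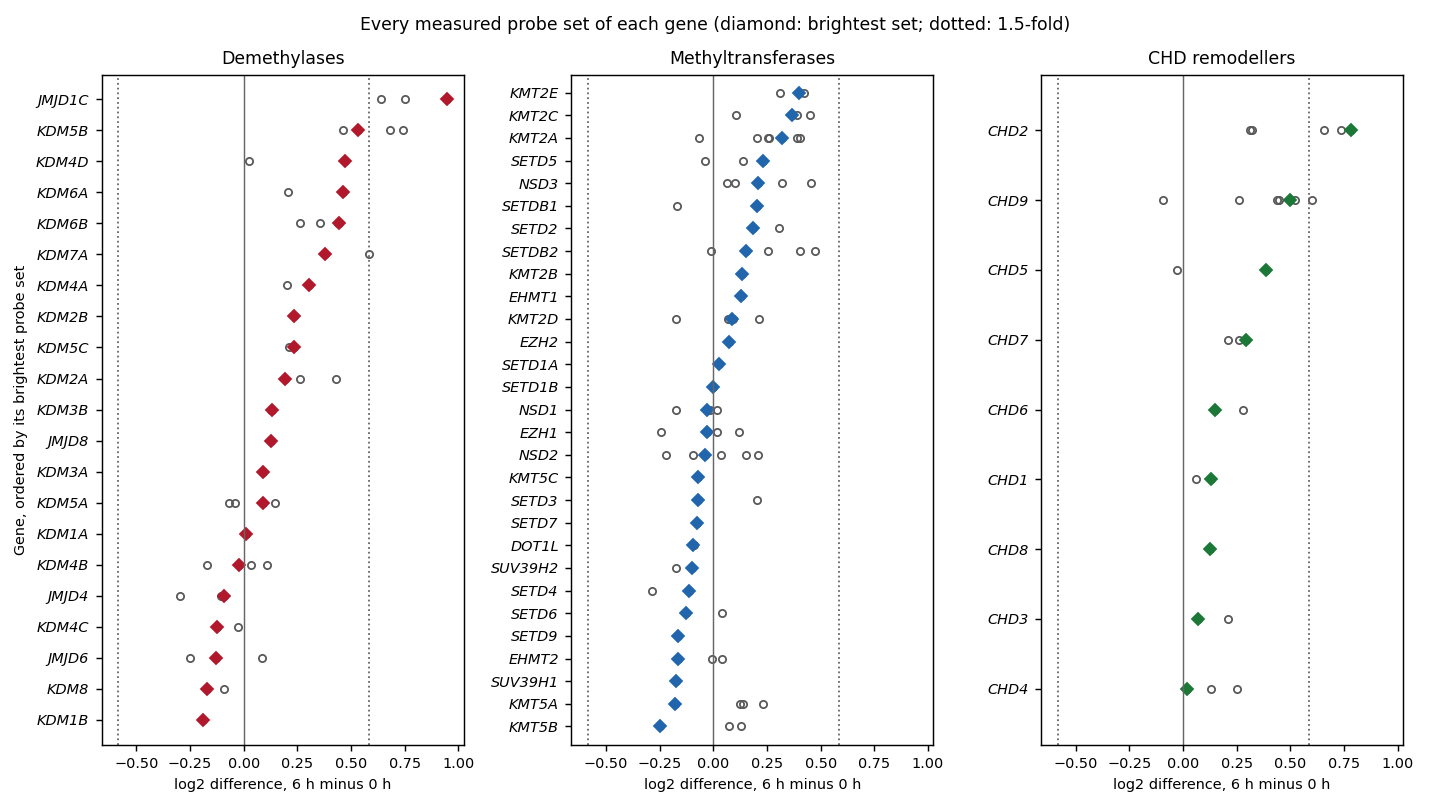
Log2 difference (x axis, 6 h minus 0 h) of every measured probe set (155 sets) for each member, in 3 panels by class, with the brightest set as a filled diamond and the others as open circles. All sets of JMJD1C, KDM5B, KDM6B and CHD2 lie right of 0, while the sets of KMT5A and KMT5B lie on both sides.

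Agreement between probe sets was counted in each class, and the classes were not tested against each other. A gene with more sets has more chances to be mixed, and genes with several measured sets had on average 2.75 of them among demethylases, 3.50 among methyltransferases and 3.25 among remodellers. Of the 16 demethylases with at least 2 measured sets, 10 were higher on every set, 3 lower on every set and 3 mixed. Of the 20 such methyltransferases, 4 were higher on every set, 3 lower and 13 mixed. Of the 8 such remodellers, 6 were higher on every set and 2 mixed. Among all 6122 genes with several measured sets, 30.4% were higher on every set and 20.9% lower on every set. Counted by probe set, 35 of 49 sets of demethylases (71.4%), 49 of 79 of methyltransferases (62.0%) and 25 of 27 of remodellers (92.6%) were higher. That share was not computed over all measured probe sets, so nothing is read from these values. Every set was at least 1.2-fold higher for 5 members, or 3 of 42 without JMJD1C and CHD2, where 2.76% of all genes with several sets were. The 5 were JMJD1C, CHD2, KDM5B, KDM7A and KMT2E. CHD9 was the 1 member whose sets spanned over 0.5.

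Brightness was not the same for all of these genes. JMJD1C, CHD2, KDM5B, KMT2E and CHD9 were bright at 0 h relative to the floor, between 473 and 1349, and KDM6B, KDM7A and KDM6A between 175 and 316. KDM4D and CHD5 were within 1.5-fold of the floor at 0 h, and their second sets were at 0.02 and -0.03.

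**Figure D4:**
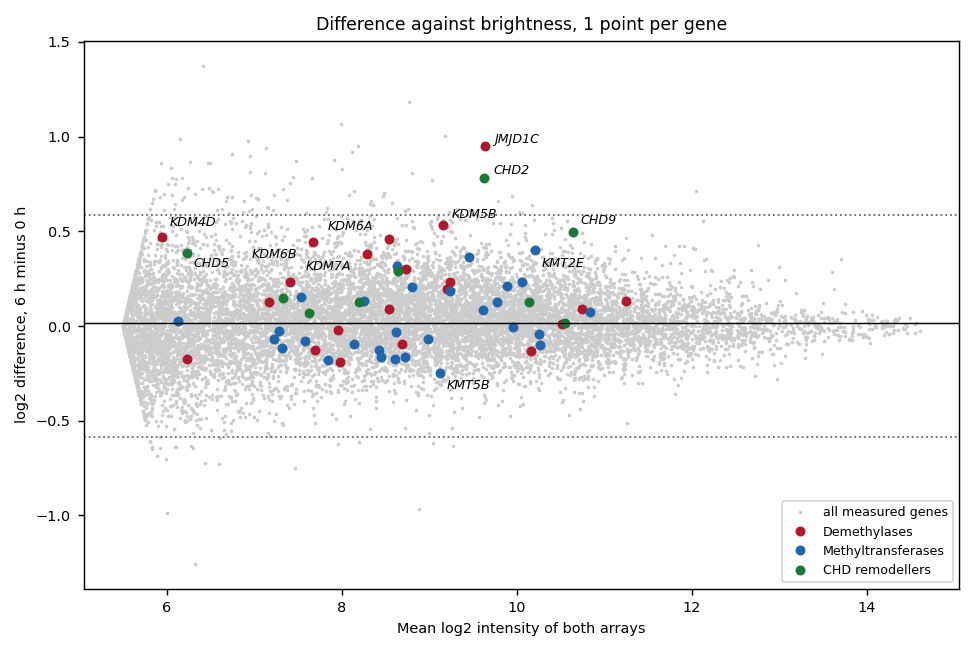
Log2 difference (y axis, 6 h minus 0 h) against the mean log2 intensity of both arrays (x axis) for 12669 genes in grey and the 59 members in colour, with dotted lines at 1.5-fold and a solid line at the median of all genes, 0.017. JMJD1C and CHD2 lie above the upper dotted line, and KDM4D and CHD5 lie at the dim end.

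The enzymes and remodellers work in complexes, and partner genes listed by function were read in the same way. The 13 lists held 153 genes, of which 148 were measured, with 1 at least 1.5-fold higher and 1 at least 1.5-fold lower, where 0.75% and 0.182% of all genes were. The share higher is thus near that of all genes. GATAD2B, a scaffold of NuRD, was at 95.1 and 145 (0.60), with its second set at 0.22. PRDM16, a zinc finger protein with a PR/SET domain, was at 111 and 67.6 (-0.72), with its second set at 0.14. GATAD2A, the other NuRD gene named, was at 0.20, with 4 sets from -0.04 to 0.36, and the median of this list was 0.05 over 10 genes.

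Partners of KMT2 and SETD1 enzymes had a median of 0.02 over 14 genes, which lay between -0.04 and 0.02 over the settings and was below 0 under quantile and loess scaling. NCOA6 of the KMT2C and KMT2D complexes was at 0.33 (1062 to 1337), and BOD1L1 at 0.28, with a second set at -0.53. The core subunits WDR5 (-0.09), RBBP5 (0.03), ASH2L (-0.02) and DPY30 (-0.06), named after their values were seen, differed little. Partners of PRC2 had a median of 0.10 over 11 measured genes, led by JARID2 (559 and 704, 0.33) and AEBP2 (731 and 900.3, 0.30). Partners of KDM1A in CoREST had a median of 0.03 over 9 genes, led by PHF21A (401 and 534, 0.41, lowest of 3 sets -0.06) and ZMYM2 (947 and 1165, 0.30). The sign of the CoREST median was reversed under quantile and loess scaling and with no floor.

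All 5 measured genes listed with DOT1L, AFF1 and AFF4 among them, were higher on their brightest sets. Their median was 0.19, where 54.3% of all genes were higher. Of these genes, AFF1 was nearly level (0.03), and MLLT6 (0.19) had another set at -0.10. They were led by AFF4 (889 and 1203, 0.44) and MLLT10 (1712 and 2185, 0.35), whose 7 sets lay between 0.03 and 0.38. Readers and partners of H3K9 methylation had a median of 0.07 over 10 genes, with MPHOSPH8 (0.31) and CBX5 (0.17), which encodes HP1α, at the top. JmjC proteins outside the symbol rule mostly lay below 0: 7 of 8 were lower and 1 higher, against 54.3% of all genes higher. Of the 7, PHF2 (-0.01) and HIF1AN (-0.01) were nearly level. HIF1AN and RIOX2 (-0.22) also had sets above 0, up to 0.09 and 0.02. The median of the 8 was -0.10. HR was at 69.1 and 53.6 (-0.37) and TYW5 at 163 and 139 (-0.23), the latter with a set at 0.24.

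Among other lysine methyltransferases 5 of 10 were higher, near the 54.3% of all genes. Their median of -0.03 changed sign under the higher floor (60th percentile) and without _x_at and _s_at sets. After PRDM16 came SMYD1, which passed the floor on 1 array alone, at least 1.22-fold lower. Arginine methyltransferases had a median of -0.14, with 6 of 9 lower and 3 higher, where 54.3% of all genes were higher. PRMT7 (679 and 590.0, -0.20) and PRMT5 (3359 and 2997, -0.16) led them, and PRMT5 was lower on its 3 sets.

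Of the remodellers outside the CHD family, 14 of 17 measured motor proteins were higher, with a median of 0.05, where 54.3% of all genes were higher. ATRX (678 and 829, 0.29, other sets up to 0.71) and EP400 (445 and 527, 0.24) had the largest differences. Of 19 other subunits of remodelling complexes 18 were higher, with a median of 0.16, and 8 were at least 1.2-fold higher, where 9.90% of all genes were. They were led by SMARCD3 (272 and 402, 0.56) and CECR2 (77.0 and 107, 0.47), whose second set was at -0.03. Histone deacetylases had a median of 0.11 (12 of 15 higher, against 54.3% of all genes), led by SIRT1 (0.32) and SIRT2 (0.24). Acetyltransferases and bromodomain readers had a median of 0.03 over 13 genes, led by EP300 (0.36) and CREBBP (0.27), and this median was below 0, down to -0.01, under quantile and loess scaling.

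**Figure D5:**
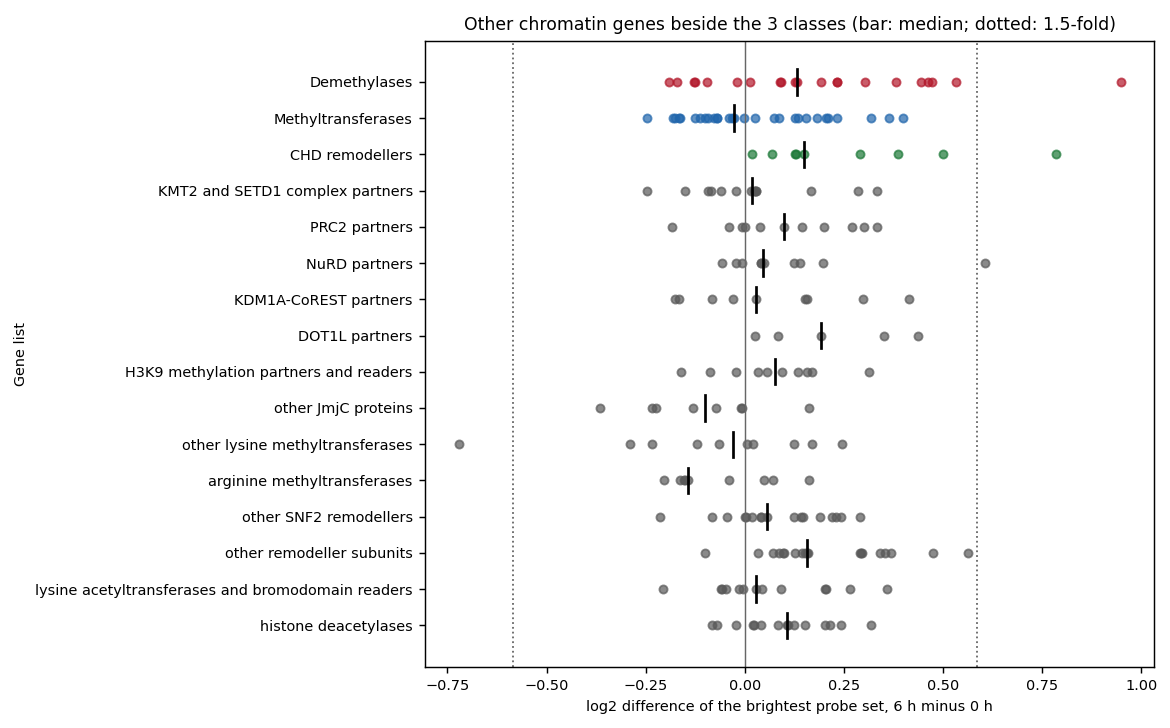
Log2 difference of the brightest probe set (x axis, 6 h minus 0 h) for the 3 classes of members in colour and the 13 other chromatin lists in grey (y axis), with 1 point per gene, a bar at each median and dotted lines at 1.5-fold. JMJD1C and CHD2 lie beyond the upper line with GATAD2B, and PRDM16 beyond the lower one.

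The labels give type II alveolar cell as the cell type. Of 8 alveolar type II markers read, 5 were above the floor, the highest of them ABCA3 at 173 and 208. NAPSA (51.1 and 61.0) and NKX2-1 (56.7 and 68.6) were close to it. SFTPB (0.35) and NKX2-1 (0.28) had sets down to -0.39 and -0.18, and SFTPC (-0.30) had sets up to 0.02. SFTPD, LAMP3 and SLC34A2 were under the floor on both arrays, as were EPCAM, CDH1 and KRT19 of 6 epithelial genes. The summed intensity of the alveolar markers was 556 at 0 h and 616 at 6 h, and that of 3 leukocyte markers, all under the floor, 78.8 and 72.0. That of 5 endothelial markers, of which PECAM1 alone was measured, was 160.2 and 144. The 6 epithelial genes, of which 3 were measured, summed to 324 and 294, and the 6 fibroblast markers, of which 2 were measured, to 362 and 303. All these sums include values under the floor. Most of the fibroblast sum was COL1A1, at 230.1 and 179 (-0.36), whose other measured set was at 0.94, and the median of the 2 measured fibroblast markers was above 0 (0.07) with the median of sets. For GAPDH, 3′ probe signal over 5′ signal came to 1.14 at 0 h and 1.12 at 6 h, and for ACTB to 1.68 and 1.72. The part of these values in the differences above was not tested.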

How the data were processed

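Total RNA of 2 samples, 1 for each time, was measured on Affymetrix arrays. The authors deposited linear intensity values for each probe set, made with MAS5 per the submitters' processing notes. Its version, parameters and any scaling are not given in the sources used here. This method subtracts local background and mismatch signal, which makes dim values noisy, and an unequal scaling would shift all genes together.

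Probe sets (54675) were named through the platform annotation, and 41091 had 1 gene, of which 41037 matched RefSeq by Entrez identifier. Sets with several genes (1801) or none named (11721) and 62 controls were named for no gene. Members and gene lists were chosen with earlier results of these arrays known. Named with values were JMJD1C, CHD2, their paralogs, members past 1.5-fold, the 5 highest and 5 lowest of each class, members whose sets span over 0.5, and the 2 largest differences of each other list. All other members are given too. With 1 array per time no test was made, and precision is limited by having 2 arrays. The settings tried were percentiles 40 and 60 for the floor, none with log2(value + 16), centring, quantile and loess (span 0.3) scaling, the median of a gene's sets, and leaving out _x_at and _s_at sets. Steps were tested on simulated data with larger shifts than any member showed and less scatter than between real probe sets. That test does not bear on differences of the size reported here. Python 3.11.15, pandas 2.3.3 and statsmodels 0.14.6 were used.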

Additional observations from a re-analysis of the deposited data

How the results depend on the processing

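Over the 8 alternatives, 51 of the 59 members kept the sign of their difference in every setting that measured them, and 8 did not: CHD4, KDM1A, KDM4B, KDM5A, KMT5A, KMT5B, SETD3 and SETDB2. The share over all measured genes is not given, and every setting used the same arrays, so nothing is read from this count. JMJD1C lay between 0.75 and 0.95 and CHD2 between 0.65 and 0.78, both at least 1.5-fold higher in each. KMT5A was at 0.13 and KMT5B at 0.073 with the median of a gene's sets, and KMT5A at 0.23 without _x_at and _s_at sets. Members at least 1.2-fold lower numbered 1, KMT5B, after centring, quantile or loess scaling, against 0. Members at least 1.2-fold higher numbered 9 with the median of a gene's sets, against 14. The methyltransferase median was -0.071 under quantile scaling, -0.065 under loess scaling and 0.026 with the median of sets. The remodeller median was 0.21 over 7 genes without _x_at and _s_at sets. The median over all genes lay between -0.01 and 0.02. A difference of a single gene was called the same within the SD of 0.16 between sets, and a median within that SD divided by the square root of its n. The cause of these changes was not tested. Values near the floor of 45.4, such as those of KDM4D and CHD5, are limited by signal over background. No paired analysis was possible because each time has 1 array.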

Other observations

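The 4 non-coding neighbours that matched the symbol rule were read on 1 probe set each. JMJD1C-AS1, antisense to JMJD1C, was at 77.1 and 89.6 (0.22), against 0.95 for JMJD1C itself. KDM7A-DT, which starts next to KDM7A in the opposite direction, was at 140.3 and 127 (-0.14), while KDM7A was at 0.38. KMT2E-AS1 was at 91.7 and 87.0 (-0.08), while KMT2E was at 0.40. EHMT1-IT1 was under the floor on both arrays. Whether the arrays' probes separate each strand was not tested.

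Probe sets shared by several genes were named for none of them. A set shared by JMJD7 and its read-through with PLA2G4B was at 164 and 158 (-0.05), and a set shared by KMT2C and genes of the BAGE family was under the floor on both arrays.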
